A study of Mus musculus with 75 samples.

Results

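NeuN-sorted nuclei of cortical neurons that carry the genotype label Dnmt3a1-/- were compared with wild type nuclei, across all genes, by RNA sequencing. These were 4 libraries of the 75 samples in the series, 2 titled 3a1KO and 2 titled WT, chosen by title alone. All came from C57BL/6 mice at postnatal day 21. Per the labels' protocols, cerebral cortex was dounced, the freed nuclei were sorted with an antibody against NeuN, a neuronal nuclear protein encoded by Rbfox3, and the RNA went into a stranded mRNA kit. The labels do not state which exons Dnmt3a1-/- mice lack, whether the loss is restricted to a cell type, or how many animals gave each library. For comparison, 3 Dnmt3a1-/- and 3 wild type libraries each of whole cortex and whole hippocampus, of the same day, were used beside the nuclei.

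DNMT3A is a de novo DNA methyltransferase: it methylates cytosines at CG and, in neurons, also at other sites. Alternative start sites give the full-length protein DNMT3A1 and the shorter DNMT3A2, which is transcribed from a downstream promoter and has no N-terminal extension. In young postnatal neurons DNMT3A lays down methylation that reader proteins bind, and DNMT3A1 is the form known to favour the flanks of CG-rich, Polycomb-marked promoters.

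Dnmt3a has 3 start windows in the RefSeq promoter table (GRCm38.p6), and the most upstream and most downstream are shown because the label names the isoform that starts upstream. Those of Myo5c and Crb2 are shown because both genes were higher in the labelled nuclei and also in cortex. Each run is the 250 bases before an annotated start, 5′ to 3′ on the plus strand, with every CG, the site DNMT3A methylates most, in capitals. Positions are chr12:3806730-3806979 and chr12:3891494-3891743 for Dnmt3a, chr9:75231764-75232013 for Myo5c and chr2:37775999-37776248 for Crb2.
Dnmt3a upstream start: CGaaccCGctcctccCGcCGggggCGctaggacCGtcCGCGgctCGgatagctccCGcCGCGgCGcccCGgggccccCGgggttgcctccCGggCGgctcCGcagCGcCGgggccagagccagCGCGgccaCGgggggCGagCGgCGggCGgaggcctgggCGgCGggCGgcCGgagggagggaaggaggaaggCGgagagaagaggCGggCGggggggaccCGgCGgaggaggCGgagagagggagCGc
Dnmt3a downstream start: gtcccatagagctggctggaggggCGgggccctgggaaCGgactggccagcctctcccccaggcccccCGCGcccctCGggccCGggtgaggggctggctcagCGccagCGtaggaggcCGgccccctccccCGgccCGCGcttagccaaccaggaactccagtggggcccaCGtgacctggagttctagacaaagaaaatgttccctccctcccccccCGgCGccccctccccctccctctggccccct
Myo5c: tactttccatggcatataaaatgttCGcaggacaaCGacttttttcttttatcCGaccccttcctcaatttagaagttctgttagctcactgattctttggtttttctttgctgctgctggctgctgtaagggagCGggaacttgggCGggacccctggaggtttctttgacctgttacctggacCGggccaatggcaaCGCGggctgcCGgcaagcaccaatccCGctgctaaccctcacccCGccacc
Crb2: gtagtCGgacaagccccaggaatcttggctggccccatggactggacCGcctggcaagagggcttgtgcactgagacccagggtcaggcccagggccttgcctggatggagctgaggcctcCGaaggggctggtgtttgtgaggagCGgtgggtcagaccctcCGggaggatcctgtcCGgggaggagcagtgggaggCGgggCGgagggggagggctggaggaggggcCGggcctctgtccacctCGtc
The upstream Dnmt3a window holds 38 CG and the downstream one 15, against 11 in Myo5c and 10 in Crb2. Over the 11438 tested genes with a window, each taken at its window richest in CG, the median was 16 CG with quartiles at 10 and 24, and 92.1% of all windows hold at least 1 CG. Methylation itself was not analysed here.

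Gene counts summed to 39.0 and 25.3 M (M, mega counts) in the nuclei labelled Dnmt3a1-/- and to 35.2 and 35.4 M in wild type nuclei. Neuronal markers checked the sort: the summed level of 15 pan-neuronal genes was 5535 and 5955 counts per M (CPM) in the labelled nuclei and 5956 and 6463 CPM in wild type nuclei, 0.977 times that of wild type cortex in wild type nuclei. Astrocyte, oligodendrocyte, microglia and endothelial marker sums in wild type nuclei were 0.042, 0.028, 0.021 and 0.047 times those of wild type cortex. Genes of these 4 lists were thus low but none of the lists had a member at 0 in all 4 nuclei libraries. Other non-neuronal sums in wild type nuclei were 0.215 times those of wild type cortex for oligodendrocyte precursors and 0.196 for choroid plexus. They were 0.142 for blood and 0.02 for mural and meningeal markers. Excitatory, inhibitory and striatal neuron marker sums were 0.697, 0.776 and 1.588 times those of wild type cortex. In the second labelled library 4.91% of reads were set aside for low alignment quality, against 1.05% in the other labelled library and 1.15% and 1.08% in wild type. By Xist and Y-linked reads, replicate 1 was male and replicate 2 female in both groups, so each group came from more than 1 animal. The leading component, with 41.8% of the variance, placed the labelled libraries at -33.1 and 6.2 and the wild type ones at 0.5 and 26.4, so that the groups overlapped. On it the male libraries (-33.1 and 0.5) lay below the female ones (6.2 and 26.4). On the second component, with 37.3%, the labelled libraries were at -2.6 and -28.6 against 28.3 and 2.9 in wild type. The groups did not overlap there, although 2 libraries of different groups lay closer to each other than to their own group.

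Dnmt3a itself (ENSMUSG00000020661) was read at 381 and 371 CPM in the nuclei labelled Dnmt3a1-/-, from 14899 and 9336 reads, against 409 and 395 CPM in wild type nuclei, from 14259 and 14107 reads. Both labelled libraries were slightly below both wild type ones. The log2 fold change of -0.10 ± 0.15 (SE, n = 2 each) did not pass edgeR's quasi-likelihood test (adjusted p = 0.894), nor with sex as a term (adjusted p = 0.74). In whole cortex Dnmt3a was at 72.5, 80.6 and 74.6 CPM in Dnmt3a1-/- and 150, 165 and 148 CPM in wild type. In hippocampus it was at 69.0, 75.5 and 74.2 CPM in Dnmt3a1-/- and 165, 150 and 136 CPM in wild type. The groups lay far apart in both tissues, with log2 fold changes of -1.02 ± 0.07 and -1.04 ± 0.09 (SE, n = 3 each, edgeR adjusted p = 1.16e-05 and 0.000112). The nuclei effect exceeded the cortex effect by 0.93 ± 0.13 (adjusted p = 0.00915) and the hippocampus effect by 0.95 ± 0.15 on the log2 scale (adjusted p = 0.0166, edgeR interaction contrasts). A gene count sums both isoforms, and the sources used here do not say which of its exons are deleted. In cortex and hippocampus the count followed the genotype label and in the nuclei it did not, so every direction below is that of libraries labelled Dnmt3a1-/-.

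**Figure D1:**
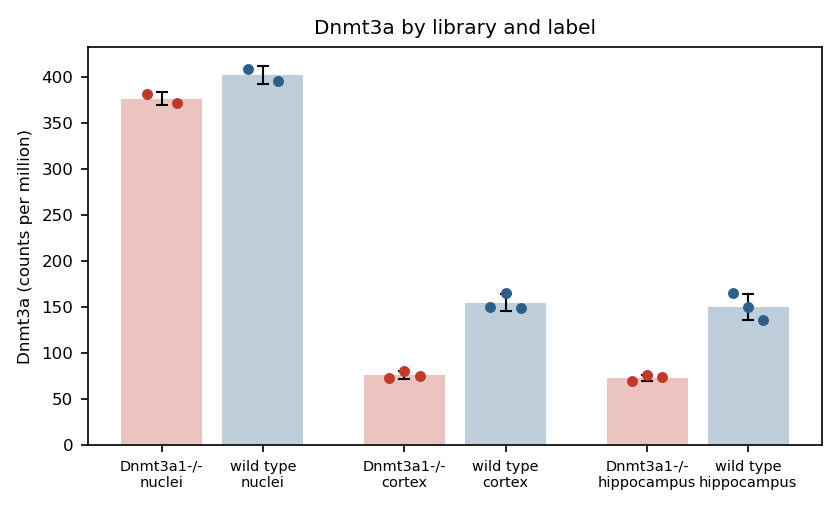
Dnmt3a in counts per M (CPM) in each library (points), with the group mean (bars) and SD (error bars), for nuclei, cortex and hippocampus, the label Dnmt3a1-/- left of wild type in each pair. The 2 nuclei groups lie within 371 to 409 CPM of each other, while both tissues hold less in Dnmt3a1-/- than in wild type.

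The other tested genes of the methylation machinery were not called in the nuclei. Dnmt1, the maintenance methyltransferase, was at 84.3 and 74.6 CPM in the labelled nuclei against 72.5 and 67.4 CPM in wild type (log2 fold change 0.18 ± 0.13). Dnmt3b, the other de novo enzyme, was at 3.17 and 3.22 CPM against 2.72 and 2.44 CPM. In both genes the groups did not overlap, as in 19.2% of all genes toward higher levels, and the difference did not pass (edgeR adjusted p = 0.735 and 0.755). The oxidases Tet1, Tet2 and Tet3 had log2 fold changes of -0.27, -0.03 and -0.02, and the readers Mbd1, Mbd2, Mbd3 and Mbd4 0.14, 0.05, 0.08 and 0.18. Gadd45b, an activity-induced gene linked to demethylation, showed the widest gap, with 12 and 7.82 CPM in the labelled nuclei against 5.22 and 7.14 CPM in wild type (0.69 ± 0.22, adjusted p = 0.31). With sex as a term it passed (adjusted p = 0.00642). Among further members, Uhrf1, Tdg, Zbtb38, Zbtb4, Zbtb33, Gadd45a and Gadd45g, had log2 fold changes between -0.08 and 0.29.

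Across all genes, few differences passed. Of 15860 genes tested, 39 were called at an edgeR adjusted p under 0.05, or 0.246%, with 34 higher (0.214%) and 5 lower (0.0315%) in the nuclei labelled Dnmt3a1-/-. At an unadjusted p under 0.05 there were 1425 genes (8.98%), 832 higher (5.25%) and 593 lower (3.74%). All 39 called genes had groups that did not overlap, as did 19.2% of all genes toward higher and 19.4% toward lower levels. Of the 39, 32 differed by 2-fold or more. A wild type mean under 5 CPM was found for 24 of the 39. The median log2 fold change over all genes was -0.01.

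The 4 libraries weighed unequally on this count. Without wild type replicate 1, 4 genes were called, 2 of them among the 39, namely Myo5c and Ighm. Without wild type replicate 2, 31 were called and 13 of the 39 remained. Without labelled replicate 1 there were 87 calls, with 33 of the 39, and without labelled replicate 2 there were 364, with all 39. Myo5c and Ighm were called in each of these 4 fits, and all 39 kept their direction in each. With sex as a term, a fit with 1 residual degree of freedom in place of 2, 740 genes passed (4.67%), 452 higher (2.85%) and 288 lower (1.82%), with all 39 among them.

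**Figure D2:**
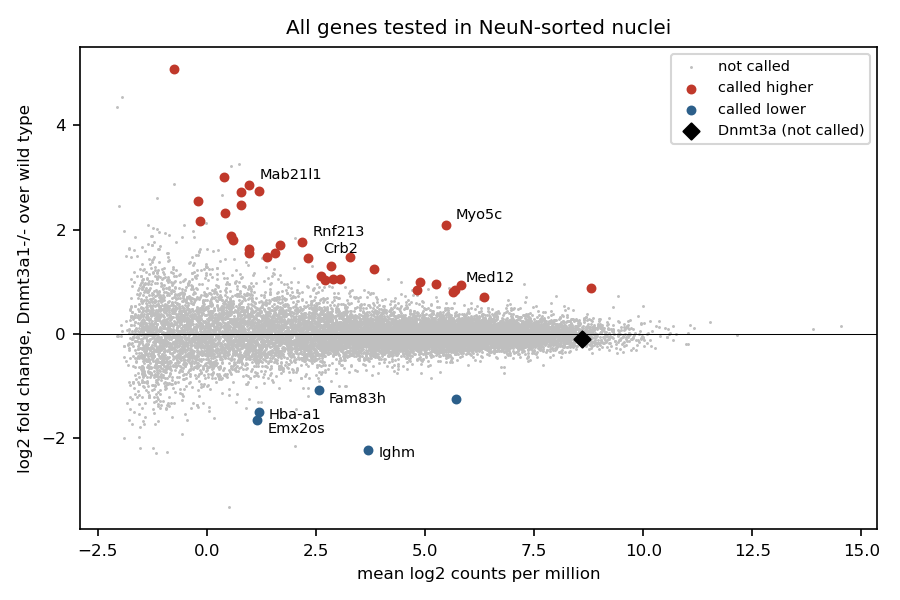
Log2 fold change of nuclei labelled Dnmt3a1-/- over wild type nuclei (y) against mean log2 CPM (x) for the 15860 genes tested, with the 34 genes called higher, the 5 called lower and Dnmt3a marked. Called genes spread from the low end of expression to Col6a1 at the high end, with Myo5c and Med12 between.

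Myo5c (ENSMUSG00000033590), a class V myosin that moves vesicles along actin and is best known from glandular epithelia, was the clearest change. It was at 71.9 and 71.7 CPM in the labelled nuclei against 17.5 and 16.3 CPM in wild type nuclei. The libraries of each group were nearly equal and the groups lay 4.25-fold apart (log2 fold change 2.09 ± 0.14, edgeR adjusted p = 2.86e-06). Its neighbour on the chromosome in the GRCm38.p6 annotation, Myo5a, the class V myosin of neurons, had a log2 fold change of -0.19 (adjusted p = 0.77). Myo5c was also higher in Dnmt3a1-/- cortex, by 2.06 ± 0.24 (adjusted p = 0.000684), while in hippocampus 1.08 ± 0.31 did not pass (adjusted p = 0.0851).

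Several further genes rose from low wild type levels. Got1l1, an aspartate aminotransferase-like gene, was at 4.96 and 2.66 CPM in the labelled nuclei against 0.430 and 0.728 CPM in wild type, a log2 fold change of 2.73 ± 0.37 (adjusted p = 0.00393). Aspg, an asparaginase, was at 16.8 and 11.7 CPM against 6.22 and 4.14 CPM (1.47 ± 0.22, adjusted p = 0.00983). Sdsl, a serine dehydratase-like gene, was at 5.58 and 4.01 CPM against 1.43 and 1.51 CPM (1.71 ± 0.26, adjusted p = 0.00956). Labelled replicate 1 was the highest library in each of these 3 genes. Crb2, a Crumbs polarity protein, was at 9.59 and 10.8 CPM in the labelled nuclei against 4.21 and 4.0 CPM in wild type (1.31 ± 0.19, adjusted p = 0.00758). Rxfp2, the receptor of the hormone INSL3, was at 16.7 and 23.1 CPM against 10.2 and 6.61 CPM (1.24 ± 0.22, adjusted p = 0.0258). The groups were separate in both genes, with more spread within groups in Rxfp2.

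Kcnk9, an imprinted gene for a leak potassium channel, was at 6.80 and 7.86 CPM in the labelled nuclei against 2.38 and 2.97 CPM in wild type (1.45 ± 0.22, adjusted p = 0.00956). It was the called member of both the imprinted list and the potassium channel list. Cortex went the other way without passing (-0.57 ± 0.19, adjusted p = 0.0576), and the nuclei effect exceeded the cortex effect by 2.03 ± 0.30 (adjusted p = 0.00915). Gatad2b, a subunit of the chromatin remodeller NuRD, was at 10.2 and 12 CPM in the labelled nuclei against 4.76 and 5.91 CPM in wild type (1.05 ± 0.19, adjusted p = 0.0298), and its difference from cortex was 1.22 ± 0.19 (adjusted p = 0.0103). Of the other genes named by size, Lrmp, a membrane protein of the endoplasmic reticulum, Cdcp1, a transmembrane substrate of Src kinases, and Card10, a scaffold upstream of NF-kB, rose by log2 fold changes of 1.54, 1.47 and 1.12.

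Other calls fell outside the naming rule and are named after their values were seen. Mab21l1, a gene of eye development, was at 3.38 and 3.42 CPM in the labelled nuclei against 0.373 and 0.560 CPM in wild type (2.85 ± 0.32, adjusted p = 0.000901), and Sec14l4, of a lipid-transfer protein family, was at 2.25 and 2.34 CPM against 0.315 and 0.252 CPM (3.00 ± 0.36, adjusted p = 0.00172). Both genes were close to silent in wild type nuclei. Lcn8, a lipocalin of the epididymis, had 69 reads in the 2 labelled libraries and 2 reads in the 2 wild type libraries, a ratio per effective library size of 37.9 with an exact 95% interval of 10.1 to 319 that covers counting error only. Among genes with more reads, Med12, a subunit of the Mediator kinase module, rose by 0.83 ± 0.14, Slc24a4, a sodium-calcium-potassium exchanger, by 0.95 ± 0.15, Ppm1m, a phosphatase, by 0.94 ± 0.15, Vps13c, a lipid transport protein, by 0.71 ± 0.13, Adcy9, an adenylate cyclase, by 0.84 ± 0.15 and Sik2, a salt-inducible kinase, by 0.80 ± 0.15. Tspear, Serhl, Slc2a9 (a urate transporter), Slc25a45, Impg1, Cyp4f17 and Matn4 also rose, by 1.03 to 2.71 on the log2 scale.

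Ighm (ENSMUSG00000076617), the constant region of the immunoglobulin M heavy chain, had the lowest log2 fold change of the 5 genes called lower. It was at 3.68 and 5.40 CPM in the nuclei labelled Dnmt3a1-/- against 25.2 and 16.9 CPM in wild type nuclei, a log2 fold change of -2.23 ± 0.23 (adjusted p = 0.000573). Both labelled libraries lay far below both wild type ones. Ighm is known from B cells, whose defining genes were at or near 0: Ms4a1 had 0 reads in all 4 libraries, and Cd79b had 0 in both labelled libraries and 0 and 1 in wild type. Cd79a had 14 and 11 reads in the labelled libraries against 17 and 18 in wild type. Emx2os, the antisense RNA of the homeobox gene Emx2, fell by 1.65 ± 0.31 on the log2 scale, to 0.793 and 1.31 CPM in the labelled nuclei against 2.90 and 3.56 CPM in wild type (adjusted p = 0.0313). Emx2 had 0.639 and 1.51 CPM in the labelled nuclei and 1.52 and 1.99 CPM in wild type (adjusted p = 0.577). Reads of the pair cannot be told apart because the strand setting of the counting is not given. Fam83h, a gene tied to keratin organisation, fell to 3.61 and 3.85 CPM in the labelled nuclei, against 8.28 and 7.45 CPM in wild type (-1.08 ± 0.20, adjusted p = 0.0313). The fifth gene called lower, ENSMUSG00000093077, has no symbol here. Genes that missed the threshold most narrowly on this side were Zfp459 (log2 fold change -1.01), the sodium channel Scn7a (-1.0), the orexin receptor Hcrtr1 (-0.99) and Prtg (-0.90), with adjusted p between 0.0549 and 0.0591, then Hbb-bs, Megf11, Lemd1 and mt-Rnr2.

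**Figure D3:**
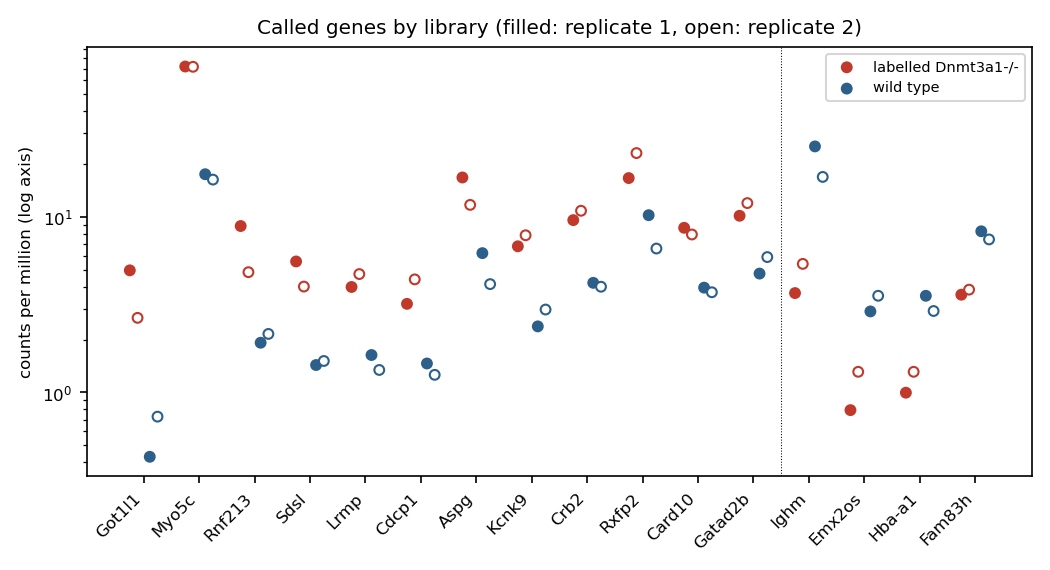
CPM (log axis) in each nuclei library for the 12 genes called higher and the 4 called lower that the naming rule picked, with the label Dnmt3a1-/- left of wild type for each gene. The rule required groups that do not overlap, and Myo5c has the smallest spread within groups.

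Of 41 gene lists, 40 had tested members, and 4 lists held a called gene: imprinted genes and potassium channels (Kcnk9), collagens (Col6a1) and blood (Hba-a1). These are 3 of 1211 listed genes tested, beside 0.246% called over all genes, so holding a call does not set a list apart. Counts at an unadjusted p under 0.05 are given below as a description, beside 5.25% higher and 3.74% lower over all genes. Col6a1, the alpha 1 chain of collagen VI, was at 652 and 507 CPM in the labelled nuclei against 347 and 282 CPM in wild type (0.88 ± 0.17, adjusted p = 0.0449). The alpha 4 chain gene, Col6a4, not on the list, rose as well, to 31.9 and 46.8 CPM in the labelled nuclei, against 18.5 and 20.8 CPM in wild type (1.00 ± 0.18, adjusted p = 0.027). Among the other chains, Col6a2 had 78.1 and 53.8 CPM in the labelled nuclei and 39.7 and 34.5 CPM in wild type (0.83 ± 0.17, adjusted p = 0.0587). Col6a6 had 2.17 and 2.18 CPM in the labelled nuclei and 0.745 and 0.868 CPM in wild type (1.43 ± 0.31, adjusted p = 0.0716), while Col6a3 and Col6a5 had log2 fold changes of 0.05 and 0.20. The groups overlapped for Col6a3 and were separate for the other chains, as they were toward higher levels for 19.2% of all genes. Col6a1 was called in 1 of the 4 fits with a library left out and Col6a4 in 2. Over the 33 collagens tested, the median log2 fold change was 0.19 against -0.01 over all genes, with 8 higher and 2 lower at the unadjusted threshold. Mural and meningeal marker genes, which include collagens of fibroblasts, summed to 18.6 and 20.7 CPM in the labelled nuclei and 23.6 and 19.5 CPM in wild type, groups that overlap.

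Interferon response genes, a set induced by type I interferon, had the highest median of the lists at 0.73 over 38 tested of 52 listed, beside -0.01 over all genes. With edgeR none was called and 21 were higher and 0 lower at the unadjusted threshold. DESeq2 called 4 higher, where 0.341% of all genes were, and edgeR with sex as a term called 12 higher, where 2.85% of all genes were. Oasl2, an oligoadenylate synthetase-like protein, was at 4.68 and 0.874 CPM in the labelled nuclei against 0.287 and 0.308 CPM in wild type (adjusted p = 0.398). H2-D1, a class I antigen presentation gene, was at 39.1 and 27.9 CPM against 18.5 and 18.8 CPM (adjusted p = 0.0578). In both genes labelled replicate 1 was the highest library and labelled replicate 2 stood between it and wild type, and the list's summed level was 401 and 296 CPM in the labelled nuclei against 259 and 255 CPM in wild type. Without labelled replicate 1 the median was 0.29, and without labelled replicate 2 it was 1.08. Of the genes called over all, Eif2ak2, the double-stranded RNA kinase PKR, and Rnf213, a large ubiquitin ligase, are also interferon-induced but not on the list. Eif2ak2 was at 3.27 and 2.30 CPM in the labelled nuclei against 0.946 and 0.980 CPM in wild type (1.55 ± 0.30, adjusted p = 0.0431). This call was lost with DESeq2 (adjusted p = 0.0752), and in edgeR without wild type replicate 1, wild type replicate 2 or labelled replicate 1 (adjusted p = 0.413, 0.153 and 0.147). Rnf213 was at 8.88 and 4.85 CPM in the labelled nuclei against 1.92 and 2.16 CPM in wild type (1.77 ± 0.28, adjusted p = 0.012), a call lost without wild type replicate 1 (adjusted p = 0.289). Microglia markers summed to 44.6 and 51.9 CPM in the labelled nuclei and 44.5 and 43.5 CPM in wild type, and their part in the interferon levels was not tested. In cortex 15 of 38 listed members were called higher in Dnmt3a1-/- (median 0.34), where 8.95% of all genes were, and in hippocampus 0 of 37 (median -0.01), where 1.69% of all genes were, so that 0 calls there do not set the list apart.

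Immediate early genes, which neuronal activity induces within minutes to hours, had a median of 0.33 over 48 tested, with 14 higher and 0 lower at the unadjusted threshold in edgeR and none called. DESeq2 called 1 higher, where 0.341% of all genes were, and edgeR with sex as a term called 18 higher, where 2.85% of all genes were. Fos was at 41.7 and 41.5 CPM in the labelled nuclei against 16.3 and 40.4 CPM in wild type. Arc was at 236 and 161 CPM against 64.9 and 178 CPM. Egr3 was at 32.1 and 25.7 CPM against 9.95 and 19 CPM. Wild type replicate 1 was the low library in all 3 genes, and wild type replicate 2 lay near the labelled libraries in Fos and between them in Arc. The list summed to 3565 and 3508 CPM in the labelled nuclei against 2332 and 3506 CPM in wild type. Without wild type replicate 1 the median was 0.04, and without wild type replicate 2 it was 0.72. Without labelled replicate 2 it was 0.43. Inhba, an activity-regulated gene for an activin subunit, was at 3.89 and 3.14 CPM in the labelled nuclei against 1.23 and 1.68 CPM in wild type (1.28 ± 0.27, adjusted p = 0.0716), and its effect exceeded that of cortex by 2.24 ± 0.44 (adjusted p = 0.0389).

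Genes of the mitochondrion and the ribosome had medians below 0, with no call in edgeR. DESeq2 called 2 transcripts of the mitochondrial genome and 1 ribosomal protein gene lower, where 0.0851% of all genes were. The 8 tested transcripts of the mitochondrial genome had a median of -0.64, and all 8 were lower at the unadjusted threshold. With sex as a term all 8 were called lower, where 1.82% of all genes were. For example, mt-Co1, a subunit of cytochrome oxidase, was at 79.2 and 88.6 CPM in the labelled nuclei against 108 and 175 CPM in wild type (adjusted p = 0.158). These transcripts were 0.021% and 0.025% of counts in the labelled nuclei against 0.030% and 0.043% in wild type nuclei, a small remainder of what whole cortex holds. Without wild type replicate 2, the library highest in them, the median was -0.40 and 3 of the 8 were lower. For the 73 ribosomal protein genes the median was -0.18, with 16 lower and 0 higher, and Rplp1 was at 27.8 and 22.6 CPM against 34.7 and 55.3 CPM (adjusted p = 0.119). The 63 nuclear genes of oxidative phosphorylation had a median of -0.20 with 10 lower and 0 higher. Without wild type replicate 2 these medians were -0.07 and -0.08, with 2 and 0 members lower. The share of cytoplasmic RNA left on the nuclei was not measured separately, and the part it has in these lists was not tested.

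Blood transcripts were lower too. Hba-a1, an alpha globin, fell to 0.997 and 1.31 CPM in the labelled nuclei, against 3.55 and 2.91 CPM in wild type (-1.50 ± 0.28, adjusted p = 0.035). This call was kept narrowly with DESeq2 (adjusted p = 0.0497). It was lost in edgeR with the spread of 16 libraries of 3 tissues (adjusted p = 0.287). Hba-a2, the near-identical copy of Hba-a1, shares reads with it, so the split between them is uncertain. Hba-a2 was at 1.28 and 0.874 CPM in the labelled nuclei against 2.69 and 2.55 CPM in wild type (edgeR adjusted p = 0.112). Hbb-bs and Hbb-bt had log2 fold changes of -1.03 and -1.60 (adjusted p = 0.0802 and 0.133). The 4 globin genes were lower in every labelled library than in every wild type library, as were 19.4% of all genes. The 7 blood genes tested had a median of -1.03 with 4 lower, which are these globin genes, and 0 higher at the unadjusted threshold. Cortex and hippocampus gave Hba-a1 log2 fold changes of -1.0 and -1.07, neither past the test.

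**Figure D4:**
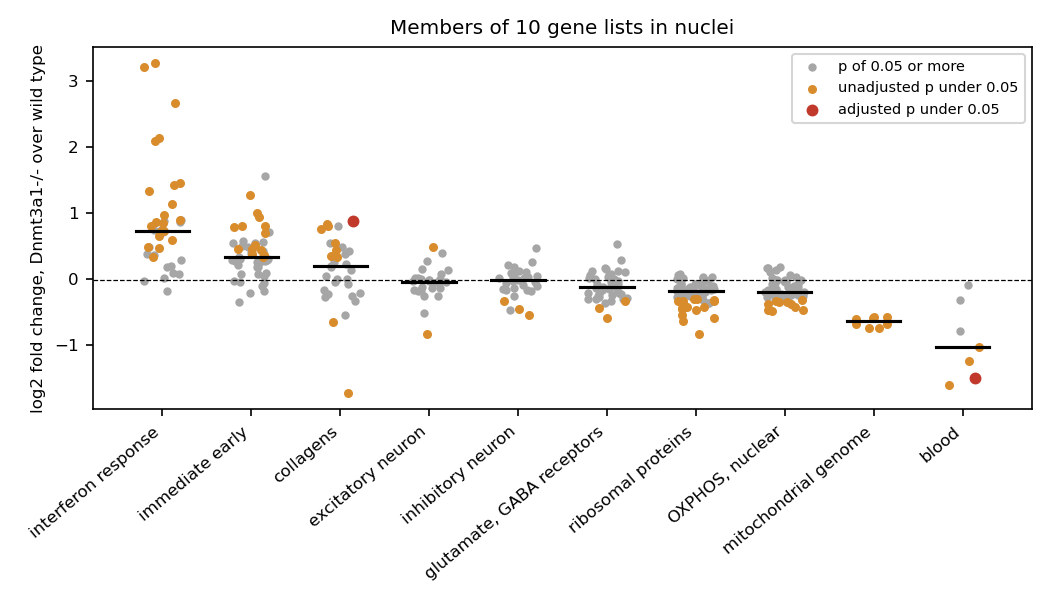
Log2 fold change of nuclei labelled Dnmt3a1-/- over wild type nuclei for the tested members of 10 gene lists (points, coloured by threshold), with each list's median (solid bar) and the median of all genes (dashed line, -0.01). Interferon response members spread upward around a median of 0.73, mitochondrial genome members cluster at -0.64, and neuronal marker lists centre near 0.

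Lists of neuron type markers had medians near 0. The 28 excitatory markers had a median of -0.04 with 1 higher and 1 lower at the unadjusted threshold, and the lower one, the layer marker Rspo1, was at 3.02 and 3.30 CPM in the labelled nuclei against 5.59 and 5.71 CPM in wild type (adjusted p = 0.149). The 30 inhibitory markers had a median of -0.02 with 3 lower (10%) and 0 higher, where 3.74% of all genes were lower. The lower ones included the interneuron peptide Sst at 43.4 and 35.7 CPM against 49.1 and 66.4 CPM (adjusted p = 0.244). With 1 library left out the excitatory median ran from -0.12 to 0.04 and the inhibitory one from -0.18 to 0.08. With sex as a term 2 excitatory markers were called higher and 2 lower, and 2 inhibitory markers lower. In that fit 2.85% of all genes were called higher and 1.82% lower. Nrgn, a calmodulin-binding protein of excitatory neurons, was at 127 and 142 CPM in the labelled nuclei against 184 and 200 CPM in wild type (-0.52 ± 0.15, adjusted p = 0.209). Striatal markers had a median of 0.16 over 21 tested with 3 higher, and summed to 2016 and 1774 CPM in the labelled nuclei against 1646 and 1726 CPM in wild type. Their median was 0.02 without wild type replicate 1, 0.10 without labelled replicate 1, and 0.29 without wild type replicate 2. Ppp1r1b, the striatal phosphatase regulator DARPP-32, was at 233 and 185 CPM against 139 and 152 CPM (adjusted p = 0.239). The 42 glutamate and GABA receptor subunits had a median of -0.13 with 3 lower and 0 higher, and the 57 vesicle and scaffold genes -0.02 with 4 higher and 1 lower. The receptor median was -0.01 without labelled replicate 1 and -0.26 without labelled replicate 2. With sex as a term 13 receptor subunits were lower at the unadjusted threshold and 3 were called lower. In that fit 8.3% of all genes were lower and 1.82% were called lower. Glial and vascular medians were -0.17 for astrocytes, 0.12 for microglia, 0.07 for oligodendrocytes and 0.30 for endothelium. At the unadjusted threshold stood 1 of the 81 members of these lists. Oligodendrocyte precursor markers had a median of 0.08 over 11 tested, with 1 higher and 0 lower. Mural and meningeal markers had a median of -0.3 over 13 tested, with log2 fold changes from -1.73 to 1.15. Of these 13, 3 were higher (23.1%) and 2 lower (15.4%), where 5.25% and 3.74% of all genes were. With 1 library left out the endothelial median ran from -0.22, without wild type replicate 2, to 0.66, without wild type replicate 1, and the microglia median from -0.06, without labelled replicate 2, to 0.33, without labelled replicate 1. The oligodendrocyte median ran from -0.04 to 0.14. Glucocorticoid and stress genes had a median of 0.16 over 27 tested with 4 higher and 1 lower, and Fkbp5, a glucocorticoid target, was at 64.8 and 55.6 CPM in the labelled nuclei against 40.7 and 24.5 CPM in wild type (0.89 ± 0.20, adjusted p = 0.109). The median of that list was 0.03 without wild type replicate 1 and 0.22 without wild type replicate 2. Neat1, the paraspeckle RNA retained in nuclei, was at 55.5 and 30.4 CPM against 26.4 and 21.0 CPM (adjusted p = 0.239). Because these are bulk libraries, fewer nuclei of a type and less RNA per nucleus cannot be told apart.

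Polycomb and trithorax genes themselves, and gene classes that DNA methylation or Polycomb is known to control, had medians near 0 in the nuclei. Medians were 0.02 for 44 Polycomb and trithorax genes and -0.03 for the 43 of 128 developmental transcription factors with enough reads to test. They were 0.01 for 38 of 50 imprinted genes, 0.00 for 26 of 46 germline genes and 0.00 for 23 of 58 clustered protocadherins. Only 24 of the listed protocadherins were matched by symbol to a counted gene, so the clusters were covered in part. Of the developmental transcription factors 4 were lower (9.3%) and 0 higher at the unadjusted threshold, where 3.74% of all genes were lower. Their log2 fold changes ran from -1.93 to 0.89. With sex as a term 2 of them were called lower, where 1.82% of all genes were. No HOX gene of 39 listed had enough reads to test, and 28 of them had 0 reads in all 4 libraries. In edgeR, Kcnk9 was the 1 called gene of these lists, and DESeq2 also called 1 germline gene higher, where 0.341% of all genes were. With 0.246% of all genes called, so few calls in lists of this size do not set them apart. Rec8, a meiotic cohesin subunit, came closest, at 29.4 and 25.1 CPM in the labelled nuclei against 16.8 and 15.4 CPM in wild type (0.76 ± 0.16, adjusted p = 0.0588), and it was called higher in Dnmt3a1-/- cortex (1.36 ± 0.26, adjusted p = 0.00907) and hippocampus (1.29 ± 0.22, adjusted p = 0.00868). Bcor, a subunit of a variant Polycomb complex, was at 56.9 and 56.8 CPM in the labelled nuclei against 37.9 and 43.1 CPM in wild type (0.49 ± 0.14, adjusted p = 0.209). Of the 39 called genes, 23 had a promoter window in the RefSeq table. Their CG counts ran from 1 in Lcn8 and Slc2a9 to 35 in Sik2 with a median of 11, and 6 of the 23 reached the median of 16 over tested genes. A window of 5 CG or fewer was found in 8 of the 23 and in 12.7% of the tested genes.

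The nuclei calls were set beside the Dnmt3a1-/- effects in whole cortex and hippocampus, which share no library with the nuclei. In cortex 17.9% of genes tested were called (8.95% higher, 8.91% lower) and in hippocampus 2.52% (1.69% higher, 0.827% lower), from 3 libraries a group. Of the 31 genes called higher in nuclei and tested in cortex, 17 (54.8%) were called higher there, which is 1.28% of the 1330 genes called higher in cortex, where 9.19% of the genes tested in both were called higher. Of 28 tested in hippocampus, 6 (21.4%) were called higher there, 2.64% of its 227, beside 1.67% of genes tested in both. Myo5c, Got1l1, Mab21l1, Sec14l4, Aspg, Sdsl, Crb2, Ppm1m and Med12 were among those called in cortex, and Got1l1, Mab21l1, Crb2, Ppm1m and Med12 were among the 6 in hippocampus. Of the 5 genes called lower in nuclei, Ighm was called lower in cortex as well (-0.76 ± 0.11, adjusted p = 0.000684). None of the nuclei calls was called in the opposite direction in either tissue.

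Read the other way, the 1330 genes called higher in cortex had a median log2 fold change of 0.13 in nuclei and 74% of them were positive, and of the 1383 called lower 69.8% were negative with a median of -0.10, against 47.8% positive over all genes tested in both. The 227 genes called higher in hippocampus had a nuclei median of 0.18 with 78.9% positive, and the 121 called lower -0.05 with 62.8% negative. Across genes, the log2 fold changes of nuclei and cortex correlated at Pearson r = 0.30 and Spearman rho = 0.27 over 14476 genes, and those of nuclei and hippocampus at 0.17 and 0.13 over 13626 genes. Genes are not independent replicates, so these are descriptions.

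**Figure D5:**
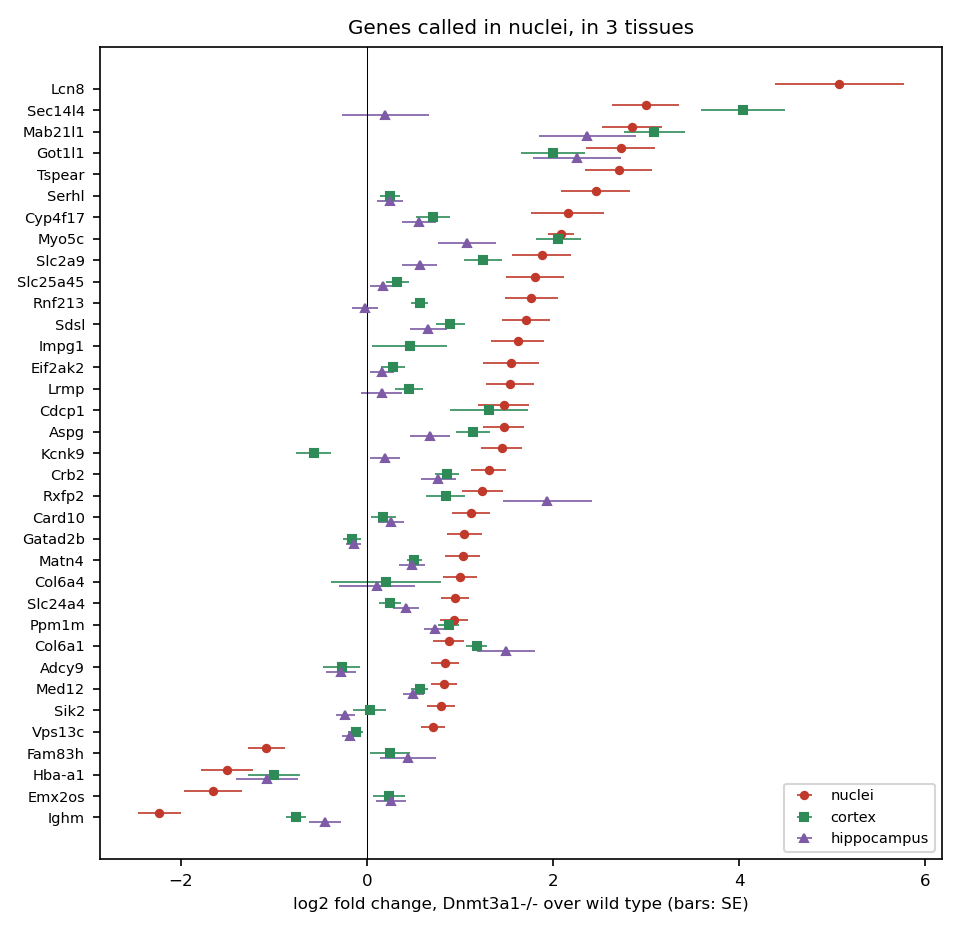
Log2 fold change of Dnmt3a1-/- over wild type with SE (bars) for called nuclei genes that have a symbol and are reported here, in nuclei (circles), cortex (squares) and hippocampus (triangles). Mab21l1, Got1l1 and Ppm1m lie to the right of 0 in all 3, whereas Kcnk9, Gatad2b, Adcy9, Sik2 and Vps13c were called in nuclei and in neither tissue.

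Direct tests of the difference called 59 of 17305 genes between nuclei and cortex (0.341%), 41 with a higher effect in nuclei (0.237%) and 18 with a lower one (0.104%). Between nuclei and hippocampus 41 of 16125 genes were called (0.254%), 30 higher (0.186%) and 11 lower (0.0682%). Both contrasts use the same nuclei libraries, so their values stand side by side and are not independent. Thbd, the thrombin receptor thrombomodulin, was at 1.33 and 1.15 CPM in the labelled nuclei against 0.344 and 0.476 CPM in wild type, while it fell in Dnmt3a1-/- cortex by 0.78 ± 0.15, a difference of 2.39 ± 0.37 (adjusted p = 0.0103). Chrm3, a muscarinic acetylcholine receptor, was at 10.9 and 16 CPM in the labelled nuclei against 7.34 and 11 CPM in wild type, groups that overlap, and fell in cortex by 0.98 ± 0.13 (difference 1.53 ± 0.28, adjusted p = 0.0326). On the other side, Hif3a, a hypoxia-inducible factor subunit, was at 3.96 and 4.57 CPM in the labelled nuclei against 5.10 and 5.15 CPM in wild type and rose in cortex by 1.5 ± 0.17 (difference -1.76 ± 0.26, adjusted p = 0.00915). Pmaip1, the p53-induced death gene NOXA, was at 0.153 and 0.159 CPM in the labelled nuclei against 0.545 and 0.980 CPM in wild type and rose in cortex by 0.98 ± 0.20 (difference -3.22 ± 0.54, adjusted p = 0.0189). In each of these 4 genes the log2 fold changes of nuclei and cortex had opposite signs, but only the cortex change was called. In nuclei alone Thbd, Chrm3, Hif3a and Pmaip1 did not pass (edgeR adjusted p = 0.119, 0.468, 0.755 and 0.112). These genes were named for the size of the difference. Calls between nuclei and cortex numbered 16 without wild type cortex replicate 2 and 115 without wild type nuclei replicate 2, and those between nuclei and hippocampus 9 without wild type hippocampus replicate 2.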

How the data were processed

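RNA was measured in 4 libraries of NeuN-sorted cortical nuclei, with 6 libraries of cortex and 6 of hippocampus beside them. Per the submitters' processing notes, STAR 2.5.4a, HTSeq 0.11.0 and genome build mm9 were used. The authors deposited raw counts of reads, 1 gene per line, without scaling. The annotation release and strand setting are not given in the sources used here. The nuclei files list 37310 gene identifiers, 32620 with a symbol in the supplied name table. Lines that name no gene (no feature, ambiguous, low quality, not aligned, not unique) held 32.1% and 36.97% of reads in the labelled nuclei and 32.92% and 31.91% in wild type and were left out. Hippocampus files list 55487 identifiers, and 32601 shared ones were used for differences. Wild type cortex libraries with plain numbers served as controls of Dnmt3a1-/- cortex.

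Counts were filtered with filterByExpr, scaled by TMM and tested with robust quasi-likelihood fits in edgeR 4.0.16 (R 4.3.3), adjusted by Benjamini-Hochberg over all genes tested and called at 0.05. The SE was taken as the absolute log2 fold change divided by the root of the F statistic. CPM use effective library sizes, except list sums, which use gene totals. Replicates of each group differed beyond counting noise (mean chi-square per degree of freedom 35.5 in the labelled nuclei and 37.6 in wild type). The labels do not tie replicates to animals, but replicate 1 was male and replicate 2 female in both nuclei groups. Each nuclei group thus came from more than 1 animal. The p-values reflect the variation among these libraries, in which animal, sex and technical differences cannot be told apart. Alternatives were DESeq2 1.42.0, its size factors, no or a stricter filter, non-robust fitting, sex or the replicate number as a term, the spread of 16 libraries and each library left out.

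The naming rule took the methylation machinery, up to 12 called genes per direction with the largest change with group values apart and a mean log2 CPM of 1 or more, the smallest p where fewer qualified, up to 3 called members per list and up to 5 genes per direction for each difference. Other genes were chosen after their values were seen. A few genes are not reported here. The members and the 41 lists were chosen with earlier results of these data known.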

Additional observations from a re-analysis of the deposited data

Results flagged for a closer look

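Effects of the Dnmt3a1-/- label that differed between the nuclei and a tissue, by the interaction contrast in edgeR, are given here as the nuclei log2 fold change minus that of the tissue. Dnmt3a differed by 0.93 from cortex and 0.95 from hippocampus, since its count was about equal in both nuclei groups and lower in Dnmt3a1-/- tissue. Thbd differed by 2.39 and 2.31, Serhl, a serine hydrolase-like gene, by 2.24 and 2.24, Slc25a45, a mitochondrial carrier, by 1.49 and 1.63, Gatad2b by 1.22 and 1.19 and Vps13c by 0.84 and 0.90, each against cortex and then against hippocampus. Against cortex alone, Kcnk9 differed by 2.03, Inhba by 2.24, Hs6st3, a heparan sulfate sulfotransferase, by 1.82 and Chrm3 by 1.53. Against hippocampus alone, Rnf213 differed by 1.81, Gucy2e, a guanylate cyclase known from the retina, by 1.64, Eif2ak2 by 1.40, Adcy9 by 1.13 and Sik2 by 1.04.

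In the other direction, Pmaip1 differed by -3.22 from cortex and -3.66 from hippocampus, Emx2os by -1.90 and -1.91 and Hif3a by -1.76 and -1.49. Gipr, the receptor of an incretin hormone, differed from cortex by -1.70, Acacb, an acetyl-CoA carboxylase, by -1.50 and Ighm by -1.48. Ccn2, a matricellular growth factor, differed from hippocampus by -1.41. Otoa, known from the inner ear, differed from hippocampus by -3.77, with 9 and 2 reads in the labelled nuclei and 8 and 14 in wild type nuclei, too few to test in nuclei alone, while it rose in Dnmt3a1-/- hippocampus by 2.92 ± 0.19 (edgeR adjusted p = 1.5e-05). For genes given against 1 tissue alone, the other tissue did not pass or was not among the genes named, which does not show that the effects are alike there.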

How the results depend on the processing

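The count of genes called in nuclei, 39 in the fit reported, was 243 with no filter on low counts, 70 with DESeq2, 740 with sex as a term and 199 with the spread taken from 16 libraries of 3 tissues. Leaving out each library in turn gave 4 to 364. The listed genes called, 3 in all, numbered 51, 16, 131 and 30 under those settings and 0 to 80 with a library left out. Calls between nuclei and cortex, 59 in all, numbered 619 with no filter, 292 with DESeq2, 38 with sex as a term and 16 to 115 with a library left out, and those between nuclei and hippocampus, 41 in all, numbered 301 with no filter, 154 with DESeq2 and 9 to 54 with a library left out. In cortex and hippocampus themselves, leaving out a library gave 1599 to 2725 and 86 to 783 calls. Under a replicate block the calls in nuclei came to 740, 131 of them listed, 901 between nuclei and cortex and 23 between nuclei and hippocampus. In nuclei this block is the same fit as sex, since replicate 1 was male and replicate 2 female in both groups. Same-numbered libraries deviated together by a correlation of 0.297. With 2 libraries a group this is 1 value, since the crossed pairs give -0.297 by construction. It cannot tell pairing by number from shared sex, so whether the libraries are paired was not settled. The fit reported takes no pairing.

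Dnmt3a stayed uncalled at -0.12 to -0.07 with a library left out. Genes of the methylation machinery near 0 changed sign with a library left out: Gadd45a ran from -0.26 to 0.54, Gadd45g from -0.14 to 0.61, Mbd2 from 0.00 to 0.10, Mbd3 from -0.09 to 0.24, Tdg from -0.17 to 0.03, Tet1 from -0.62 to 0.02, Tet2 from -0.12 to 0.07, Tet3 from -0.06 to 0.01, Uhrf1 from -0.50 to 0.20, Zbtb33 from -0.27 to 0.32, Zbtb38 from -0.21 to 0.08 and Zbtb4 from -0.02 to 0.22, as did Col6a3, from -0.09 to 0.20. With sex or the block, Zbtb33 was at 0.01. The cause of these changes was not tested. With 2 libraries a group, differences of lowly read genes are limited by depth and spread alike.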
